A study of Homo sapiens with 6 samples.

Results

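The genes described here are 10 Krüppel-like factors, KLF2, KLF4, KLF5, KLF6, KLF7, KLF9, KLF10, KLF11, KLF13 and KLF15, found by their GENCODE symbols among the 60675 gene entries of a deposited count table. The table holds RNA-seq of MRC-5, a widely used diploid fibroblast line from human fetal lung that stops dividing after a limited number of doublings. In 3 libraries the cells had been made quiescent through contact inhibition lasting 9 days, and in the other 3 they were the control cells, called young, with no perturbation named. All 6 libraries were from cells at population doubling 32. Nothing in the labels shows that libraries of 1 group came from different cultures, and the p-values therefore reflect library-to-library spread that could be technical. The columns of the young libraries do not carry those samples' titles and were assigned to the group as the 3 that remained. The young libraries are labelled as a reanalysis of older data, and so the set of libraries cannot be told apart from the growth state in any difference below. All 10 genes passed the filter on low counts.

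Krüppel-like factors are transcription factors that bind CACCC and GC-rich boxes in promoters through zinc fingers at their carboxyl end, which they share with the SP factors. One branch (KLF2, KLF4, KLF5, KLF6 and KLF7 here) is known mostly for activation through histone acetyltransferases, a second (KLF9, KLF10, KLF11 and KLF13) for repression through the SIN3 corepressor, and another (KLF3, KLF8 and KLF12) for repression through CtBP. KLF2, KLF4, KLF6 and KLF10 are also known as early response genes, induced soon after serum, injury or TGF-beta, and KLF9 and KLF15 as genes induced by glucocorticoids. In T cells KLF2 is known for maintaining quiescence.

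The genes lie on 8 chromosomes of GRCh38, in the coordinates of GENCODE 29. KLF2 (ENSG00000127528) is on chromosome 19 from 16324817 to 16327874, KLF4 (ENSG00000136826) on chromosome 9 from 107484852 to 107490482 and KLF5 (ENSG00000102554) on chromosome 13 from 73054976 to 73077542. KLF6 (ENSG00000067082) is on chromosome 10 from 3775996 to 3785281, KLF7 (ENSG00000118263) on chromosome 2 from 207074137 to 207167267 and KLF9 (ENSG00000119138) on chromosome 9 from 70384597 to 70414624. KLF10 (ENSG00000155090) is on chromosome 8 from 102648779 to 102655902 and KLF11 (ENSG00000172059) on chromosome 2 from 10042849 to 10054836. KLF13 (ENSG00000169926) is on chromosome 15 from 31326855 to 31435665 and KLF15 (ENSG00000163884) on chromosome 3 from 126342635 to 126357442. KLF2, KLF5, KLF11 and KLF13 are on the plus strand and the other 6 on the minus strand. The values below count reads over all annotated exons of a gene, untranslated parts included.

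KLF2, KLF6 and KLF10 were each lower in quiescent cells, at less than 50% of the young level, while KLF11 and KLF15 were more than 2-fold higher. KLF5 and KLF7 rose by less, and KLF4, KLF9 and KLF13 did not pass the test. So 7 of the 10 were called at adjusted p under 0.05 (edgeR's quasi-likelihood test, Benjamini-Hochberg over all genes tested), beside 71.1% of the 15568 genes tested, a like share. In the lower direction the count was 3 of 10, beside 36.3% of genes, and in the higher direction 4 of 10, beside 34.8%. At a change of at least 2-fold, 3 members were lower and 2 higher, where 8.33% and 8.98% of all tested genes were. The members' median log2 fold change was 0.10, and that of all tested genes was 0.00. In bulk RNA, fewer cells with a transcript and less of it per cell cannot be told apart.

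The promoter windows of 4 of the 5 members that changed at least 2-fold are shown because they let the sequence beside a single annotated start site of each be read next to the expression values. They are from RefSeq on GRCh38.p14 and run 5′ to 3′ on the gene's strand, over 250 bases before to 50 after a single annotated start. Capitals mark GGGCGG (the GC box) on either strand and the MEF2 site by its consensus.
KLF2: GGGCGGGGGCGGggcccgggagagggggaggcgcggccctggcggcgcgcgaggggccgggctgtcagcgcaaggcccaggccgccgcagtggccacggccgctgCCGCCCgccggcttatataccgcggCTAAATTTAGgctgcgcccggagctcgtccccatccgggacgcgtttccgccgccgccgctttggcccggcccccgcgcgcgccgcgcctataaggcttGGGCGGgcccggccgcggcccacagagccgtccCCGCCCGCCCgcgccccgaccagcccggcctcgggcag
KLF6: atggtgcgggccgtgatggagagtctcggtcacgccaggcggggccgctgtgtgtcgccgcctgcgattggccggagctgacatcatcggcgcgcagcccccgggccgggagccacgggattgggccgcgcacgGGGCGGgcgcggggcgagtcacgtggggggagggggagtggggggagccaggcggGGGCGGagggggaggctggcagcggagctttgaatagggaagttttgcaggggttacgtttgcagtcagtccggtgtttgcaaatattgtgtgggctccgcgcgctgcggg
KLF11: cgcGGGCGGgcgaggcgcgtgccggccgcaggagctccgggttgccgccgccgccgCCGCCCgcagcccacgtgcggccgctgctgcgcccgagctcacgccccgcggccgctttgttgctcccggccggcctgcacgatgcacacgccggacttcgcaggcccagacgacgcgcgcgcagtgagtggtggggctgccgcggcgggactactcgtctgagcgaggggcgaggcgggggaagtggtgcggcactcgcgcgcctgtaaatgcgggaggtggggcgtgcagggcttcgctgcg
KLF15: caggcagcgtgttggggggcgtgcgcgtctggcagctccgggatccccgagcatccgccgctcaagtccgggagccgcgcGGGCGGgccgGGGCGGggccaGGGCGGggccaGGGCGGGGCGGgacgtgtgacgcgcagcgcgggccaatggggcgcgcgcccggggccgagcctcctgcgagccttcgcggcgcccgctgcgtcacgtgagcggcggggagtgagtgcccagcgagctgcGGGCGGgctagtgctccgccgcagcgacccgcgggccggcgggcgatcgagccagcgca
The KLF2 window is chr19:16324576-16324875 on the plus strand, that of KLF6 chr10:3785160-3785459 on the minus strand, that of KLF11 chr2:10043579-10043878 on the plus strand and that of KLF15 chr3:126357359-126357658 on the minus strand. RefSeq windows were found for 9 of the 10 members. Only a single window per gene was searched, for the members and for the tested genes alike. A motif given as not found is therefore missing from that window, and other start sites of the gene were not searched. GGGCGG, searched on both strands with overlaps counted, occurred 6 times each in the windows of KLF2 and KLF15, whose levels changed in opposite directions, 4 times in KLF4, 3 times in KLF13 and 2 times each in KLF6 and KLF11. It was not found in KLF5, KLF7 and KLF9, and 69.4% of 10671 windows of tested genes held it. The letters CACCC or their complement were in the windows of KLF5, KLF7 and KLF13, beside 63% of windows of tested genes. The MEF2 consensus was in the KLF2 window alone of the 9, starting 120 bases before the start site, and in 1.5% of windows of tested genes. TATAAA was in the KLF5 window only (5.5% of windows), and neither TGACGTCA, the cyclic AMP response element (3.22%), nor the CArG box that serum response factor binds (1.07%) was in any of the 9. Base composition ranged from 32.7% G and C in the KLF9 window to 80.7% in that of KLF2, with a median of 65.3% over tested genes. A match in letters is a description and not a bound site.

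Levels below are CPM, reads scaled to a common library total by TMM, a method that assumes that most genes do not differ. Here 71.1% of tested genes were called, 34.8% higher and 36.3% lower, so the changes hold relative to this scaling. A change in total RNA per cell would not be seen in CPM. The activator branch held the largest fall of the 10 members. KLF2 stood at 28.1, 24.7 and 26.9 CPM in young libraries 1.0, 1.1 and 1.2 and at 9.25, 7.46 and 8.17 CPM in quiescent replicates 1, 2 and 3. All quiescent values lay below all young ones, from 26.6 ± 1.70 to 8.29 ± 0.901 CPM (SD, n = 3 per group). The log2 fold change was -1.68 ± 0.08 (SE; 95% confidence interval -1.85 to -1.52; adjusted p = 4.99e-16), and 3.76% of tested genes had a lower one. The counts behind it were 2132 reads over the young and 531 over the quiescent libraries. The 4 KLF2 pseudogenes in the table had 0 reads in all 6 libraries. This does not show how reads that match both KLF2 and a pseudogene were counted.

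KLF6, a widely expressed factor that is induced on injury, was the most abundant member in both groups. It had 454, 467 and 443 CPM in young and 193, 168 and 170 CPM in quiescent libraries, so the groups did not overlap. Its log2 fold change was -1.36 ± 0.05, which left 38.9% of the young level (95% confidence interval 36.3% to 41.7%; adjusted p = 3.48e-17). Its change was lower than that of all but 5.33% of tested genes. With 36513 reads in young and 11357 in quiescent libraries it was also the most deeply counted of the family.

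KLF4, one of the factors used to reprogram somatic cells to pluripotency, had 38.4, 34.6 and 35.3 CPM in young and 42.9, 33.8 and 36.7 CPM in quiescent libraries. Its groups overlapped and its log2 fold change of 0.06 ± 0.07 did not pass the test (95% confidence interval -0.09 to 0.22; adjusted p = 0.451). The interval runs from 93.6% to 117% of the young level. Without quiescent replicate 1 the value was -0.03 (adjusted p = 0.677), and with scaling by library size alone 0.24 (adjusted p = 0.0112). The interval of KLF4 and those of KLF2 and KLF6 do not overlap, although all are counted among the early response genes of the family.

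KLF5, known for promoting growth in epithelium and smooth muscle, rose from 17.39, 16.75 and 17.01 CPM in young to 23.7, 24.9 and 25.5 CPM in quiescent libraries. The change was 0.54 ± 0.06 in log2, or 1.45-fold (adjusted p = 1.96e-08), and the groups did not overlap. KLF7, known for axon growth in neurons, had 51.5, 49.6 and 48.8 CPM in young and 57.4, 54.5 and 53.9 CPM in quiescent libraries. That was a small rise, 0.15 ± 0.05 in log2 or 1.11-fold (adjusted p = 0.00693), which without quiescent replicate 1 came to 0.12 (adjusted p = 0.0493). A transcript inside an intron of KLF7, KLF7-IT1, had 31 to 33 reads in young and 6 to 12 in quiescent libraries, and its exons do not overlap those of KLF7.

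**Figure D1:**
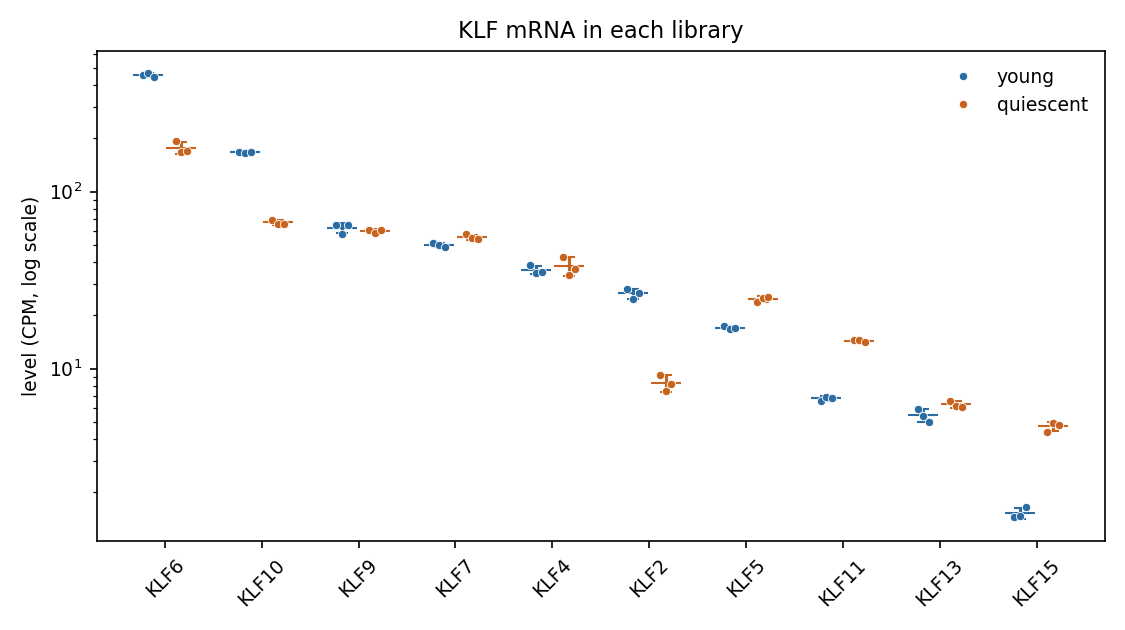
Level of each of the 10 KLF genes in CPM on a log axis, with 1 point per library (3 young, 3 quiescent), a horizontal bar at the group mean and whiskers of 1 SD. The points of KLF2, KLF6 and KLF10 are lower in quiescent libraries without overlap, those of KLF5, KLF7, KLF11, KLF13 and KLF15 higher, and those of KLF4 and KLF9 overlap.

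In the SIN3-binding branch the 2 factors named for their induction by TGF-beta, KLF10 (TIEG) and KLF11 (TIEG2), went in opposite directions. KLF10 had 168.1, 166 and 168.3 CPM in young and 69.2, 65.7 and 65.7 CPM in quiescent libraries. The log2 fold change was -1.32 ± 0.04, or 39.9% of the young level (95% confidence interval 37.6% to 42.3%; adjusted p = 7.55e-20), with coefficients of variation inside the groups of 0.672% and 3.03%. KLF11 had 6.57, 6.95 and 6.85 CPM in young and 14.5, 14.4 and 14.1 CPM in quiescent libraries. That was 2.11-fold (log2 1.08 ± 0.08, adjusted p = 6.96e-12), from 546 reads in young and 922 in quiescent libraries, without overlap of the groups. Of the tested genes, 91.9% had a lower log2 fold change than KLF11, and 5.62% a lower one than KLF10. An antisense gene whose exons overlap those of KLF11 had 0 reads in all 6 libraries. The library kit does not keep strand, so reads in that overlap cannot be told apart. The 0 therefore does not show whether the antisense gene is transcribed there.

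KLF9, a factor induced by glucocorticoids and thyroid hormone, had 64.4, 57.8 and 65.0 CPM in young and 60.55, 58.4 and 60.6 CPM in quiescent libraries. The groups overlapped and the log2 fold change was -0.06 ± 0.05 (95% confidence interval -0.16 to 0.04; adjusted p = 0.265). Its sign turned with scaling by library size alone, to 0.12 (adjusted p = 0.0434), and with upper-quartile factors, to 0.01 (adjusted p = 0.864), while without young library 1.1 it was -0.11 (adjusted p = 0.0309). KLF13, known for activating the chemokine gene CCL5 in T cells, had 5.90, 5.40 and 5.02 CPM in young and 6.59, 6.12 and 6.10 CPM in quiescent libraries. All its quiescent values lay above all young ones, but 0.21 ± 0.11 in log2 did not pass the test (95% confidence interval -0.01 to 0.42; adjusted p = 0.0844). It passed with library size alone (0.39, adjusted p = 0.00247), with upper-quartile factors (0.28, adjusted p = 0.0231) and without young library 1.0 (0.28, adjusted p = 0.0407). With 436 and 403 reads per group it was counted less deeply than any member but KLF15. The groups did not overlap in 8 of the 10 members, beside 73.5% of all tested genes.

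KLF15, which stands outside these branches and is known for inducing enzymes of amino acid breakdown, showed the largest rise of the 10. It had 1.46, 1.48 and 1.65 CPM in young and 4.41, 4.95 and 4.79 CPM in quiescent libraries. The groups did not overlap, and the rise was 3.08-fold (log2 1.62 ± 0.15, 95% confidence interval 1.32 to 1.93, adjusted p = 3.58e-10). It rests on 123 reads in young and 304 in quiescent libraries, the fewest of the 10. Of the tested genes, 96.5% had a lower log2 fold change.

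**Figure D2:**
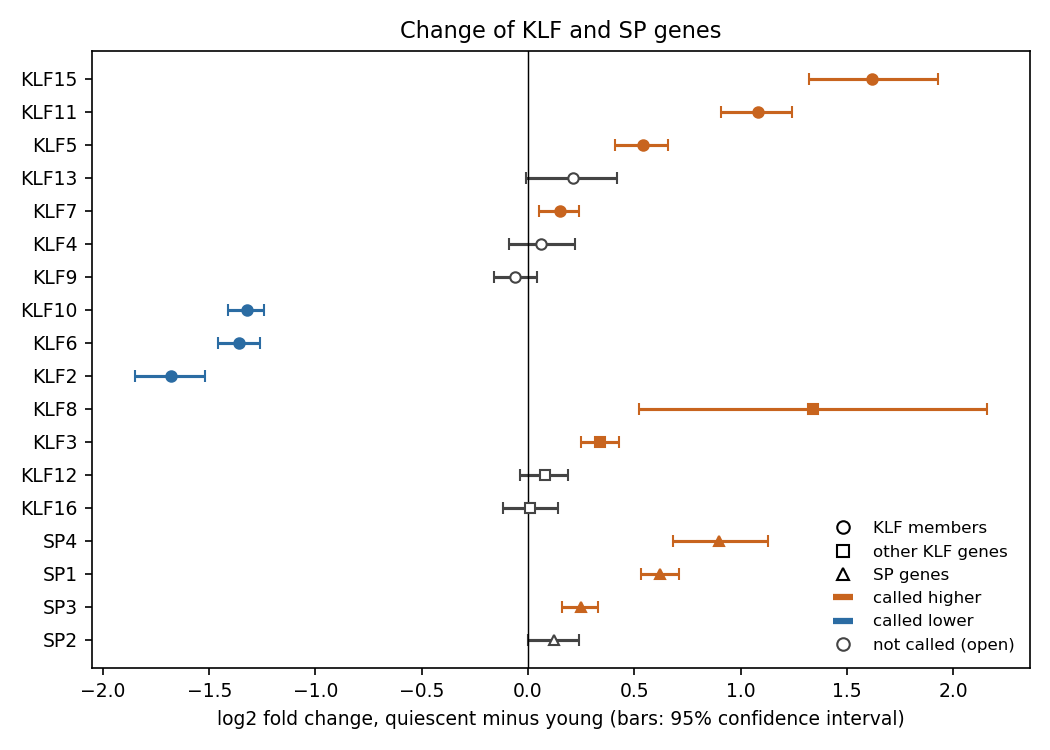
Log2 fold change of quiescent minus young with its 95% confidence interval for the 10 KLF members (circles), the other tested KLF genes (squares) and the tested SP genes (triangles), where filled symbols passed the test and open ones did not. KLF2, KLF6 and KLF10 lie between -1.68 and -1.32, KLF11 and KLF15 at 1.08 and 1.62, and every tested SP gene has a value above 0.

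To compare members with each other, CPM were divided by the exon length of GENCODE 29, which gives RPKM, a level per kilobase of transcript. Per length, KLF6 was the most abundant in young libraries at 74.1 ± 2.01 RPKM, followed by KLF10 at 41.9 ± 0.281 and KLF2 at 13.2 ± 0.842 RPKM. KLF9 came next at 12.1 ± 0.775 RPKM, its upper end (12.56) overlapping the lower end of KLF2 (12.26), and then KLF4, KLF7, KLF5 and KLF11 with no overlap between neighbours. KLF13 and KLF15 were the lowest, at 0.578 and 0.537 RPKM with overlapping ranges. In quiescent libraries the order began with KLF6 at 28.8 ± 2.30 and KLF10 at 16.7 ± 0.506 RPKM, and KLF9 (11.6 RPKM) and KLF4 (10.3 RPKM) followed with overlapping ranges. KLF5 and KLF7 overlapped at 6.35 and 5.96 RPKM, and KLF2 had moved from rank 3 to rank 7, at 4.11 ± 0.447 RPKM. KLF15, at 1.66 RPKM, then stood above KLF13, at 0.666 RPKM, without overlap.

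The summed level of the 10 members was 163 ± 1.82 RPKM in young and 89.3 ± 4.57 RPKM in quiescent libraries, a ratio of 0.546. KLF2, KLF6 and KLF10, grouped after their values were seen, summed to 129 ± 1.36 RPKM in young and 49.6 ± 3.23 in quiescent libraries. The other 7 members summed to 34.3 ± 1.32 and 39.7 ± 1.39 RPKM. KLF6 alone made up 45.3% ± 1.24 of the members' sum in young and 32.2% ± 0.940 in quiescent libraries, and KLF10 made up 25.6% ± 0.301 and 18.73% ± 0.415. The share of KLF4 went from 6.04% ± 0.275 to 11.55% ± 0.814 and that of KLF9 from 7.38% ± 0.468 to 12.97% ± 0.514, while the tests of their own levels did not pass the threshold. KLF5 went from 2.68% ± 0.0327 to 7.13% ± 0.584 of the sum and KLF15 from 0.329% ± 0.0259 to 1.86% ± 0.199. With the other KLF genes included, the sum was 181 to 185 RPKM in young and 108 to 117 RPKM in quiescent libraries. These shares depend on the annotated exon lengths, which count every listed isoform.

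**Figure D3:**
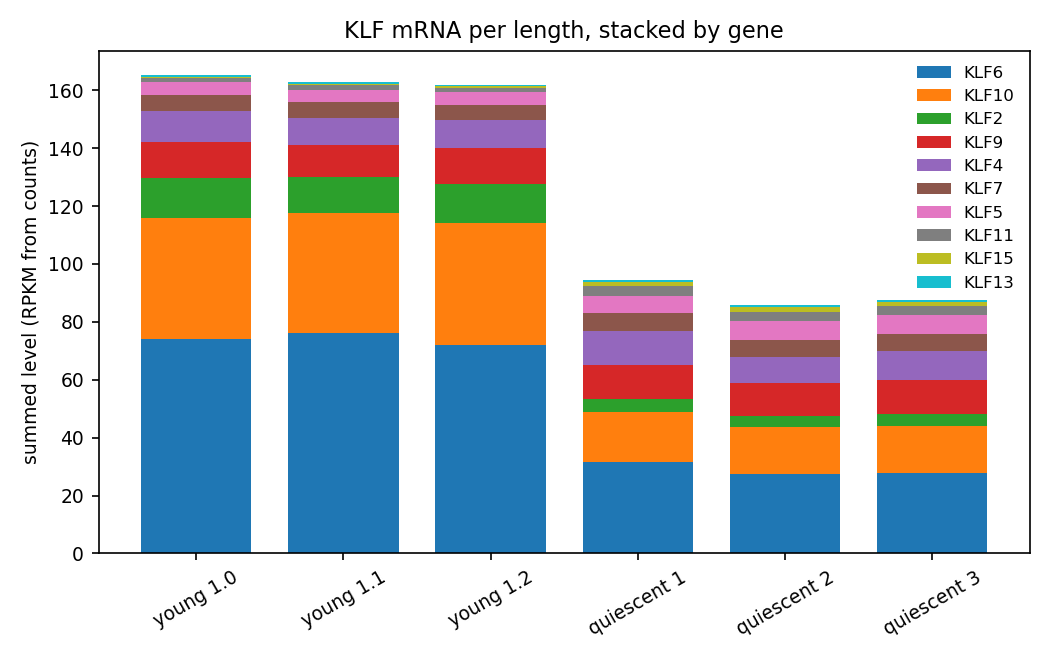
Levels of the 10 KLF genes in RPKM computed from the counts, stacked by gene for each of the 6 libraries. The stacks reach 162 to 165 RPKM in young and 85.8 to 94.5 RPKM in quiescent libraries, with KLF6 and KLF10 as the largest blocks in both.

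Of the 8 other KLF genes, 4 were abundant enough to be tested, 2 rose and 0 fell, with a median log2 fold change of 0.21. Beside these and the list counts below, 34.8% of all tested genes were called higher and 36.3% lower. KLF3 rose from 58.3 ± 2.27 to 73.7 ± 0.976 CPM (log2 0.34 ± 0.04, adjusted p = 1.73e-07). The first exon of KLF3 overlaps an exon of the antisense gene KLF3-AS1, and since the library kit does not keep strand, reads there cannot be told apart. KLF8 rose by 1.34 ± 0.40 in log2 (adjusted p = 0.00415), from 21 reads in young and 43 in quiescent libraries. It stayed under 1 CPM in all 6 libraries, so with the minimum of 1 CPM in 3 libraries it was not tested, and KLF3 was then the 1 other KLF gene called. Omitting 1 library at a time moved KLF8 between 1.05 and 1.86. KLF12 (0.08 ± 0.05, adjusted p = 0.216) and KLF16 (0.01 ± 0.06, adjusted p = 0.878) did not pass the test, and both passed with library size alone. KLF14 had 2 reads in young and 1 in quiescent libraries, KLF17 had 14 and 3, and KLF1 and KLF18 had 0 in all.

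The SP factors bind the same GC boxes, and SP1 and SP3 are expressed in nearly every cell. Of 9 SP genes 4 were tested, of which 3 rose and 0 fell. SP1 rose from 106 ± 6.89 to 163 ± 2.70 CPM (log2 0.62 ± 0.04, adjusted p = 3.30e-12) and SP4 from 3.93 ± 0.146 to 7.36 ± 0.505 CPM (log2 0.90 ± 0.11, adjusted p = 4.85e-08). SP3 rose by 0.25 ± 0.04 (adjusted p = 1.05e-05) and SP2 stood at 0.12 ± 0.06 (adjusted p = 0.0615), while the other 5 had at most 22 reads in a group.

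KLF2, KLF4, KLF6 and KLF10 stand among genes that growth factors induce within minutes to hours. Of them KLF4 did not pass the test (log2 0.06 ± 0.07, adjusted p = 0.451), while the others fell. A list of 16 other immediate early genes was set beside them. Of these, 13 fell and 3 rose, with a median log2 fold change of -0.93. NR4A1, an orphan nuclear receptor, changed by -3.80 ± 0.29 (adjusted p = 2.97e-04) and the stress-induced factor ATF3 by -2.47 ± 0.05 (adjusted p = 7.48e-24), while EGR2, a zinc finger factor, rose by 1.82 ± 0.09 (adjusted p = 2.76e-15). Quiescent replicate 1 held more of several of these transcripts than the other 2 quiescent libraries. NR4A1 was at 55.3 CPM there against 28.8 and 29.7 CPM, and EGR1 at 448 CPM against 339 and 344 CPM. The same library had the highest quiescent values of KLF2, KLF4, KLF6, KLF7, KLF10, KLF11 and KLF13, though not of KLF5, KLF9 and KLF15. For KLF11 this was nearly a tie, at 14.48 against 14.43 CPM in quiescent replicate 2. The share of all tested genes that were highest in this library was not computed. Without quiescent replicate 1, KLF2 stood at -1.77, KLF6 at -1.43 and KLF10 at -1.35 in log2.

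**Figure D4:**
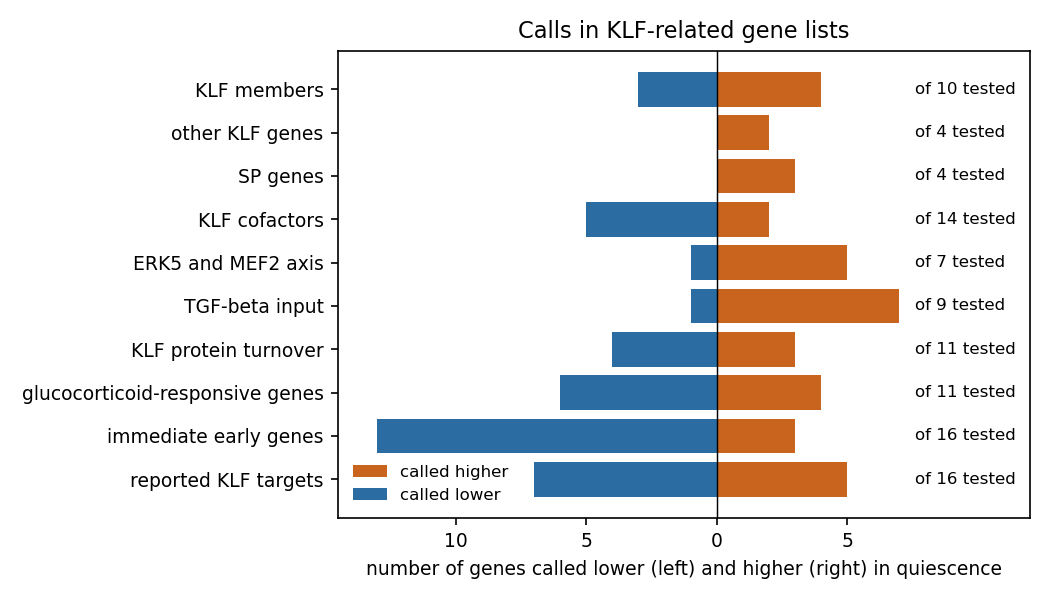
Number of tested genes called lower (left) and higher (right) in quiescent libraries in each list of KLF-related genes, with the number tested at the right. The immediate early list has 13 lower and 3 higher of 16, and the list of TGF-beta input 7 higher and 1 lower of 9. Over all tested genes, 34.8% were called higher and 36.3% lower.

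KLF10 and KLF11 respond to TGF-beta, and of 9 ligands, receptors and SMAD factors of that pathway 7 rose and 1 fell, with a median log2 fold change of 0.22. The ligand TGFB3 rose by 1.44 ± 0.14 (adjusted p = 1.09e-09) and the inhibitory SMAD7 by 1.11 ± 0.08 (adjusted p = 7.77e-12). TGFBR2, the type II receptor, fell from 363 ± 8.60 to 244 ± 4.29 CPM (adjusted p = 7.74e-13).

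In endothelium KLF2 and KLF4 are induced through the kinase ERK5 and the MEF2 factors, whose consensus stands in the KLF2 window above. Of 7 tested genes of that route 5 rose and 1 fell, with a median of 0.45, while KLF2 itself was lower. MAPK7, which encodes ERK5, rose from 33.2 ± 1.59 to 47.75 ± 1.44 CPM (adjusted p = 1.16e-09) and the kinase MAP3K2 by 0.63 ± 0.04 (adjusted p = 1.22e-12). MEF2D, with a log2 fold change of -0.30 ± 0.04, was the gene that fell (adjusted p = 8.12e-07).

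The genes that respond to glucocorticoids, among which KLF9 and KLF15 also count, went both ways, with 4 of 11 higher and 6 lower. The phosphatase DUSP1 (-2.48 ± 0.09, adjusted p = 4.08e-08) and the clock gene PER1 (-2.23 ± 0.07, adjusted p = 1.75e-18), both of which serum also induces, fell, and TSC22D3, also called GILZ, rose by 0.61 ± 0.07 (adjusted p = 1.43e-08). KLF15 was thus higher and KLF9 without a call in a list that moved in both directions.

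Of 14 cofactors, 2 rose and 5 fell, with a median of 0.01. The deacetylase HDAC1 changed by -0.54 ± 0.04 (adjusted p = 7.72e-12) and the corepressor CTBP2 by -0.42 ± 0.05 (adjusted p = 8.11e-09), while SIN3A, the scaffold that KLF9, KLF10, KLF11 and KLF13 bind, rose by 0.27 ± 0.05 (adjusted p = 4.69e-05). That split was not stable, since with library size alone 8 rose and 3 fell, without young library 1.1 5 rose and 5 fell, and without young library 1.2 5 rose and 7 fell. With limma-voom or no filter on low counts, 5 rose and 5 fell. Of 11 ubiquitin ligases and deubiquitinases reported to act on KLF proteins, 3 rose and 4 fell, or 5 rose and 2 fell with library size alone. The ligase SMURF2 fell from 454 ± 5.34 to 213 ± 3.87 CPM (adjusted p = 9.48e-19) and SIAH1 rose by 0.55 ± 0.08 (adjusted p = 2.56e-06).

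Genes reported as targets of single KLF factors in various tissues did not move one way, since 5 of the 16 tested rose and 7 fell. Scaling by library size alone turned that balance, to 7 that rose and 4 that fell. S1PR1, the sphingosine phosphate receptor that KLF2 is known to induce in T cells, rose from 10.2 ± 0.133 to 40.0 ± 0.776 CPM (log2 1.98 ± 0.06, adjusted p = 5.39e-20). Of the other genes of the list known as KLF2 targets in endothelium, named after their values were seen, THBD stood at -0.93 ± 0.43 (adjusted p = 0.0535, 41 reads in young and 17 in quiescent libraries) and NOS3, with 17 and 5 reads, was not tested. CDKN1B, the cell cycle inhibitor p27, rose by 1.21 ± 0.05 (adjusted p = 1.03e-16). The lowest called values, also named after they were seen, were those of BCAT2 (-0.97 ± 0.06), an enzyme of amino acid breakdown, and the cyclin CCND1 (-0.86 ± 0.04).

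By the closeness of their profiles, each centred on its mean over the 6 libraries, the tested genes nearest to KLF15 were MT-TP, a mitochondrial tRNA gene, CLK1, a kinase of splicing factors, and AL137003.2, a long non-coding RNA, at root mean square differences of 0.036, 0.052 and 0.055 in log2 CPM. Those nearest to KLF2 were POC1A, a centriole protein, at 0.056, E2F1, a factor of the cell cycle, at 0.062, and the pseudogene AP005018.2 at 0.062. Within 0.1 in log2 there were 36 tested genes around KLF15 and 13 around KLF2, so these names are a few among many with the same pattern of 2 levels.

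AU-rich sequences in the 3′ UTR are known to shorten the life of many early response transcripts, so the UTRs of 1 GENCODE 29 transcript per gene were searched for ATTTA and TTATTTATT. ATTTA occurred 3 times in KLF2, 2 in KLF4, 6 in KLF6 and 3 in KLF10, where tested UTRs of like length had medians of 1, 1, 8 and 2. In the members that rose, it occurred 5 times in KLF5, 20 in KLF7, 6 in KLF11 and 4 in KLF15, with medians of 3, 16.5, 5 and 2 at like length. The 8 copies in KLF9 and 5 in KLF13 stood beside medians of 7 and 12, so KLF6 and KLF13 were the 2 members below the median of their length. The longer TTATTTATT was in the UTR of KLF5 only, beside 7.64% of tested UTRs of like length, starting at base 1301.
KLF5: ttgtttatctTTATTTATTttgtggtaat
The capitals mark TTATTTATT. The UTRs of KLF2, KLF6 and KLF10, the members that fell, did not hold this longer form, which 8.72% of all tested UTRs did.

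The cells carried the listed fibroblast markers, with COL1A1 at 8780 CPM in young and 3880 CPM in quiescent libraries. VIM, which was not called, stood at 2863 CPM in young and 2884 CPM in quiescent libraries. All 10 fibroblast markers were tested, 3 rose (LUM the most, 1.23 ± 0.04) and 6 fell (THY1 the most, -1.91 ± 0.04), and they summed to 25180 to 25800 CPM in young and 14790 to 15150 CPM in quiescent libraries. Endothelial cells, known for high KLF2 and KLF4, have PECAM1 and CDH5 as defining markers, and these were at 0.0497 and 0.0131 CPM in young and at 0.0168 and 0 CPM in quiescent libraries. The summed level of the 10 endothelial markers was 91.5 to 102 CPM in young and 101 to 103 CPM in quiescent libraries, most of it from TEK. Of the 6 tested, 3 rose and 2 fell, with KDR at 2.94 ± 0.26, VWF at 2.03 ± 0.20 and ROBO4 at -1.72 ± 0.17 in log2. Epithelial markers summed to 43.4 to 46.7 CPM in young and 27.51 to 29.02 CPM in quiescent libraries, 3 of 3 tested fell (KRT18 and CLDN4 the most), and KRT5, KRT14 and SFTPC had no reads. Leukocyte markers summed to 1.96 to 2.51 and 2.71 to 3.78 CPM, with CD14 the only one tested (1.31 ± 0.20) and CD3E without reads. Smooth muscle markers summed to 2504 to 2651 CPM in young and 736 to 785 CPM in quiescent libraries, with 8 of 9 tested lower, ACTG2 and MYOCD the most, and MYH11 at 0.112 and 0.0889 CPM. The lower smooth muscle, fibroblast and epithelial sums moved with KLF2, KLF6 and KLF10, and their part in those changes was not tested.

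Total counts per library ranged from 18661639 to 29433764, with fewer in every quiescent than in every young library, and mitochondrial genes held 3.35% to 3.60% of counts in young and 4.52% to 4.83% in quiescent libraries. With library size alone in place of TMM, the median log2 fold change of all tested genes was 0.18. KLF2, KLF6 and KLF10 then stood at -1.50, -1.18 and -1.15, and 7 members were called higher, since KLF4, KLF9 and KLF13 passed.

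**Figure D5:**
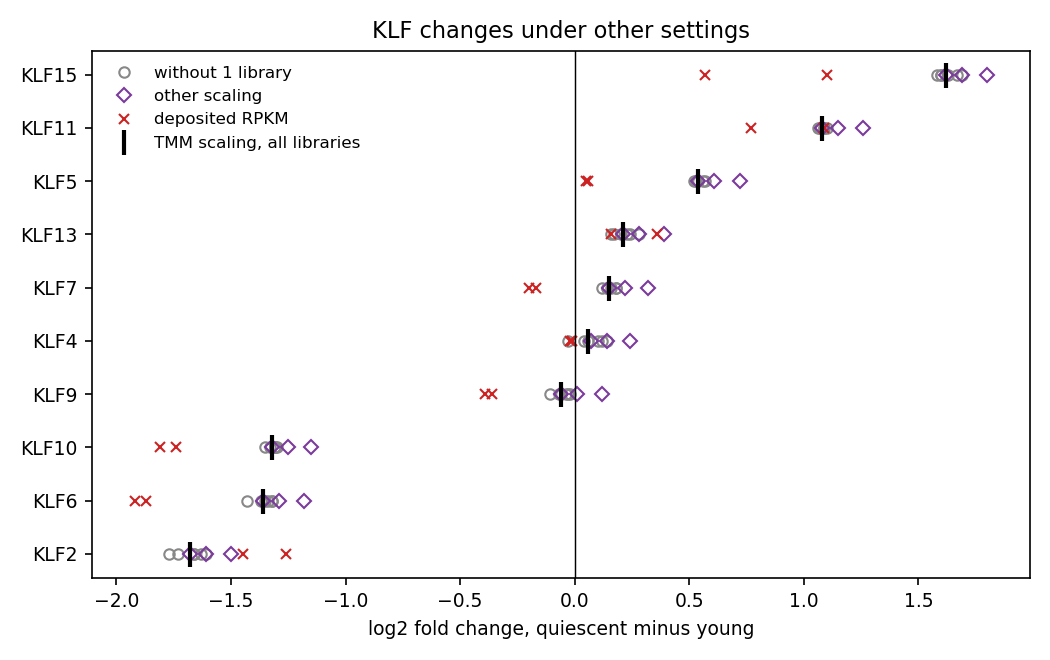
Log2 fold change of each KLF gene with TMM scaling and all libraries (bars), without 1 library at a time (circles), with other scaling factors (diamonds) and from the deposited RPKM (crosses). KLF2, KLF6 and KLF10 stay below 0 and KLF5, KLF11, KLF13 and KLF15 above 0 in every setting shown, while KLF4, KLF7 and KLF9 cross 0 in at least 1.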

How the data were processed

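RNA-seq libraries of MRC-5 fibroblasts, 3 quiescent and 3 young, were examined. The authors deposited raw read counts per gene and RPKM values. Libraries came from Illumina's TruSeq RNA v2 kit, per the labels' protocols, and this chemistry keeps no strand information. The submitters' processing notes name STAR 2.4.1d, featureCounts 1.4.6-p4, bcl2fastq 1.8.4 and the build GRCh38. Which annotation release and strand setting were used is not given in the sources used here. Quiescent columns carry their samples' titles. The other 3 columns, numbered 1.0, 1.1 and 1.2, carry a name that matches no sample title. They were taken as the 3 young libraries because the description of the gene set names them so and because they are the columns left over, and which column is which young sample is not known. Symbols, lengths and coordinates are from GENCODE 29, promoter sequences from RefSeq.

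The deposited RPKM were not used for levels. Divided into the counts, they give a read total that changes with the row of the table, in a cycle of 15 rows in young and 14 in quiescent columns. RPKM in the report were computed from the counts.

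The test was edgeR 4.0.16 (R 4.3.3) on the counts as deposited (filterByExpr, TMM, robust quasi-likelihood fit, group as the only term), with Benjamini-Hochberg adjustment over 15568 genes. Standard errors were calculated back from that test, as the absolute log2 fold change divided by the square root of its F statistic. Confidence intervals used these errors and the t distribution with the fit's degrees of freedom. The script was checked on simulated counts in which few genes changed, up and down in equal number. Data in which most tested genes are called, as here, were not simulated. Alternatives were other scaling factors, no filter or a CPM minimum of 1 in 3 libraries, DESeq2 1.42.0, limma 3.58.1 with voom, limma on log2(RPKM + 1) and log2(RPKM + 0.1) of the deposited values, and omission of each library. Limma on RPKM recomputed from the counts was added after the data were seen. The 10 members, the 14 other lists, the tests and the rule for named genes (the members, the other KLF and SP genes, the 2 largest called changes of each list and the largest in its minority direction, and the nearest profiles) were chosen with earlier results of these data known. The coefficient of variation between libraries of a group, as edgeR estimated it, was 3.84%. Counting precision follows from the reads, which are given beside KLF2, KLF6, KLF11, KLF13 and KLF15 and not beside the other members. Reads carry no molecular identifiers.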

Additional observations from a re-analysis of the deposited data

How the results depend on the processing

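The calls of KLF2, KLF6, KLF10, KLF11 and KLF15 kept their direction and stayed past the threshold in all 16 alternatives. Omission of 1 library at a time gave log2 ranges of -1.77 to -1.61 for KLF2, -0.03 to 0.14 for KLF4, -0.11 to -0.02 for KLF9 and 0.16 to 0.28 for KLF13, with 4 to 5 members higher and 3 to 4 lower. KLF4 was 0.24 with library size alone (adjusted p = 0.0112) and 0.24 on recomputed RPKM (adjusted p = 0.0372). KLF9 was 0.12 with library size alone and on recomputed RPKM (adjusted p = 0.0434 and 0.0915) and 0.01 with upper-quartile factors. KLF13 was 0.39 with library size alone, 0.28 with upper-quartile factors and 0.33 on recomputed RPKM. Members called higher numbered 7 with library size alone, and the summed CPM of all 10 members went from 828 to 777 in young and from 455 to 484 in quiescent libraries. The deposited RPKM, with pseudocounts 1 and 0.1, gave -0.01 and -0.02 for KLF4, 0.05 and 0.06 for KLF5, -0.17 and -0.20 for KLF7 and -0.36 and -0.39 for KLF9, with 2 members called higher and 24 genes of the other lists against 41. There MEF2D stood at 0.38 and 0.41, SIN3A at -0.03 and -0.05, KLF12 at -0.07 and -0.10 and KLF16 at -0.01 and -0.02. The cause was shown only for the deposited RPKM, whose read totals vary by row. KLF16 was also -0.01 with no filter and ranged from -0.03 to 0.04 with 1 library omitted. No paired analysis was possible because the young columns carry no replicate number that matches a sample. Depth limits KLF15 and KLF13 most, with 123 to 436 reads per group.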

Other observations

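The deposited RPKM of the members show the row-dependent read total directly. For KLF4, the count divided by the RPKM and by the exon length gave a total of 26.4 M reads (M for 1e6) in each of the 3 young libraries, and of 19.3, 29.007 and 19.8 M in quiescent replicates 1, 2 and 3, whose total counts were 19.3, 22.5 and 18.7 M. For KLF2 the totals were 34.2 M in the young and 29.007, 19.8 and 22.9 M in the quiescent libraries. Taken over 8755 genes, these totals ran from 26.0 to 41.5 M in young and from 18.7 to 33.7 M in quiescent columns, repeating every 15 and every 14 rows. With the cycle taken into account, the exon lengths implied by the table equalled those of GENCODE 29 for all 10 members, for instance 2018 bases for KLF2 and 6139 for KLF6. Folds between groups or libraries taken from these RPKM therefore contain the ratio of such totals.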
